A study of Mus musculus with 22 samples.

Results

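The MHC class II presentation genes described here are 9 genes fixed by name, H2-Aa, H2-Ab1, H2-Eb1, H2-DMa, H2-DMb1, H2-DMb2, H2-Oa, Cd74 and Ciita. All 9 were present among the 31116 genes counted in both sorted lung populations, and all 9 passed the filter on low counts in both. RNA sequencing was performed on 22 samples of cells sorted from lungs of C57BL/6 mice that all carried the SP-C I73T mutation, a change in surfactant protein C, which is made by the alveolar type 2 epithelium. Ly6Chi monocytes gave 4 control samples, 4 samples at 3 d and 4 samples at 14 d after a single tamoxifen gavage. Alveolar macrophages, sorted as SigF+CD11b- cells, gave 4 control samples, 3 at 3 d and 3 at 14 d. Tamoxifen activates a Flp-O recombinase expressed from the Rosa26 locus, which removes a neomycin cassette and raises the mutant protein, so the controls carry the same mutation at a lower level. The labels call the controls untreated, and the study describes those of the sequenced monocytes as oil treated mice of the same mutant line. For the macrophage controls no more is known here than the general definition in its methods, which also allows tamoxifen treated mutants without the recombinase. Nothing stated whether each sample was a separate mouse, so the p-values measure the spread between these samples. The comparisons ask how the class II genes of the recruited and the resident phagocytes stood at the initiation and at the peak of injury.

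MHC class II molecules carry peptides from engulfed material to the cell surface for recognition by CD4+ T cells. H2-Aa, H2-Ab1 and H2-Eb1 encode the peptide binding chains, and Cd74 encodes the invariant chain, which escorts the chains and plugs their groove until it is cut away. H2-DMa, H2-DMb1 and H2-DMb2 encode subunits of H2-DM, the exchange factor that swaps the last invariant chain fragment for a peptide, and H2-Oa encodes a subunit of H2-O, which restrains H2-DM and is best known from B cells. Ciita encodes the coactivator on which transcription of the whole group depends.

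Most of the group sits together in the MHC on chromosome 17, from H2-Oa at chr17:34092340-34095234 to H2-Eb1 at chr17:34305867-34316674 (GRCm38), while Cd74 and Ciita lie elsewhere. Class II promoters share an arrangement in which an X box is followed at a short distance by a Y box that binds NF-Y, whose letters are CCAAT, or ATTGG on the other strand. Promoter windows of RefSeq (GRCm38.p6, 250 bases before to 50 after a start) were found for H2-Aa, H2-Eb1, H2-DMa, H2-DMb1, H2-DMb2 and H2-Oa. The stretches of 3 members are printed, of H2-Aa and H2-Eb1 as chains that were called lower in monocytes at 3 d and of H2-DMb2 as a member that was not, with ATTGG and, where its letters were present, the X box core (GCAAC, then any base, then GATG) in capitals. They lie at chr17:34287852-34287916 (minus strand), chr17:34305763-34305827 (plus strand) and chr17:34145114-34145178 (plus strand).
H2-Aa: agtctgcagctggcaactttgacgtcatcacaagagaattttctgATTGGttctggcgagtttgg
H2-Eb1: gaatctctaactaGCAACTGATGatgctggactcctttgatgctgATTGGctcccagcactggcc
H2-DMb2: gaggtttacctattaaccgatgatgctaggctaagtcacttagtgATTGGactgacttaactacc
The exact X box letters occurred in H2-Eb1 alone among these windows and in 0.192% of all 32851 windows. CCAAT on either strand occurred in 37.4% of all windows, and both motifs together in 0.0852%. A match of letters is a description of the window and says nothing of the binding of a factor.

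Monocyte libraries held 15451460 to 28789639 counts each and macrophage libraries held 4610720 to 17074863, the 14 d macrophages being the shallowest at 4610720 to 6838893. Markers of the labelled cell types were in place, with all 8 alveolar macrophage markers higher and all 7 Ly6Chi monocyte markers lower in control macrophages than in control monocytes. Between 40119 and 41134 genes had a count in the 3 d monocyte libraries, against 24775 to 32492 in the other monocyte libraries. Every 14 d library of both cell types carried Y-linked counts (433 to 3033), and no control or 3 d library had more than 3, so time at 14 d and the sex of the mice cannot be told apart. Replicate 1 of the 3 d monocytes stood apart from the other 3 in the class II chains, and calls that rest on it are given with and without it. Correlations between genes were not computed without it. In sorted bulk samples, fewer cells of a type and less RNA per cell cannot be told apart.

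Levels are given as CPM (counts scaled to a common library total), with library totals adjusted within each cell type by TMM, a normalization that assumes most genes do not change. Compared per kilobase of exons, Cd74 was the highest member and H2-Ab1 the next in each of the 6 groups. In control monocytes Cd74 stood at 3356 ± 554 CPM per kilobase and H2-Ab1 at 993 ± 294 (SD, n = 4), and their ranges did not overlap. H2-Aa (360.04 ± 85.7) and H2-Eb1 (348 ± 74.4) followed and did not differ beyond their spread. H2-DMb1 and H2-DMa came next at 229.9 and 201 CPM per kilobase, with ranges that also overlapped, and H2-DMb2 was far lower at 15.5. Ciita (6.13) and H2-Oa (3.79) were the lowest members, and their ranges overlapped. In control macrophages Cd74 stood at 958 ± 623 CPM per kilobase, and the members from Cd74 down to H2-DMa overlapped each with the next. There the order of the lowest members was H2-Oa (6.36) above Ciita (2.44). Division by the length of the principal transcript in place of all exons raised H2-Aa to 1212 CPM per kilobase in control monocytes. For H2-Aa 3798 exonic bases are annotated for a principal transcript of 1128. H2-Aa stayed next after H2-Ab1, whose range it then overlapped, and did not overlap with H2-DMa, then the member below it.

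**Figure D1:**
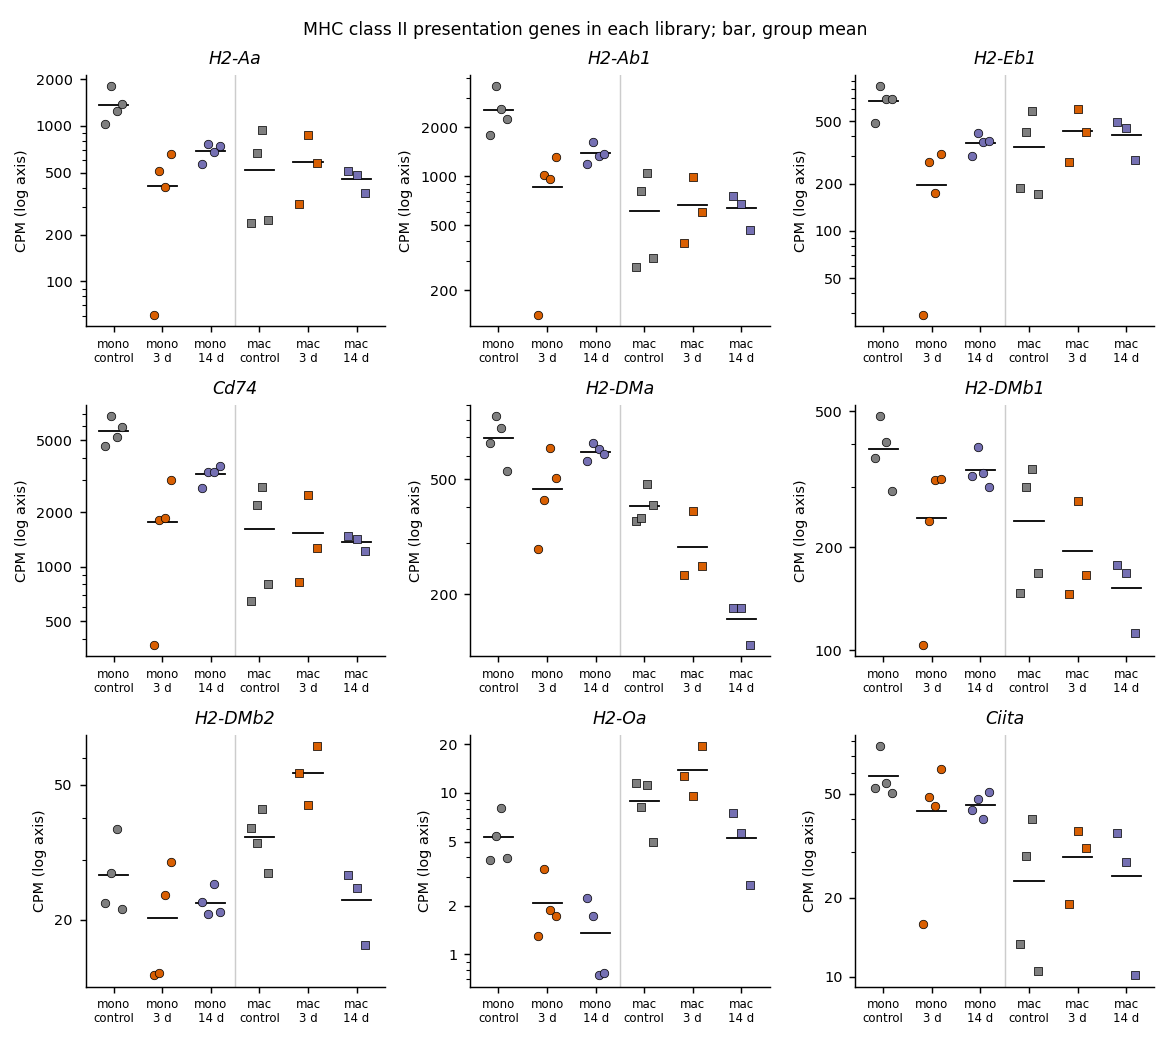
CPM of the 9 members in each of the 22 libraries (log axis), by group, with circles for monocytes, squares for macrophages and a bar at the group mean. Replicate 1 of the 3 d monocytes lies far below the other 3 for H2-Aa, H2-Ab1, H2-Eb1 and Cd74, whereas macrophage H2-DMa falls to 134 to 179.9 CPM at 14 d with no overlap with its controls.

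In control mice, 7 of the 9 members were lower in alveolar macrophages than in Ly6Chi monocytes, where 19.7% of all genes tested were called lower. A call required a fold change above 1.5 together with a two-sided p-value of edgeR's quasi-likelihood test below 0.05 after Benjamini-Hochberg adjustment over all genes tested. H2-Ab1 had the largest difference, with a log2 fold change of -2.43 ± 0.54 (SE, adjusted p = 0.0012), followed by Cd74 at -2.18 ± 0.53 (adjusted p = 0.0024). H2-Aa (-1.75), Ciita (-1.69), H2-Eb1 (-1.35), H2-DMa (-1.15) and H2-DMb1 (-1.06) were also lower. H2-Oa (0.38) and H2-DMb2 (0.01) did not pass the test. The median of the 9 members was -1.35 on the log2 scale and that of all genes was 0.05. Both cell types were deposited as separate tables, so cell type and table cannot be told apart, and the call for H2-Eb1 (adjusted p = 0.0404) was lost in 10 of the 22 fits that left out 1 library.

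In monocytes 3 d after tamoxifen the peptide binding chains, the invariant chain and H2-Oa were lower than in controls. Cd74, the chaperone, measured 4652, 6805, 5190.1 and 5894 CPM in the controls and 369, 1814, 1867 and 3034 at 3 d. All 4 libraries at 3 d lay below every control. The log2 fold change was -1.67 ± 0.44 (adjusted p = 0.0075). H2-Ab1, the beta chain of I-A, measured 1792, 3570.3, 2585 and 2253 CPM in controls against 141, 1023, 967 and 1311 at 3 d. Again no 3 d library reached a control, and the change was -1.57 ± 0.49 (adjusted p = 0.0174).

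H2-Aa, its alpha chain partner, changed by -1.74 ± 0.50 (adjusted p = 0.0125) and H2-Eb1, the beta chain of I-E, by -1.78 ± 0.51 (adjusted p = 0.0116), both with no overlap between the groups. The I-E alpha chain gene is annotated as the pseudogene H2-Ea-ps and had 0 to 17 counts a library. Levels of H2-Eb1 RNA therefore do not show that I-E was made. H2-Oa, the H2-O subunit, measured 3.85, 5.43, 8.08 and 3.95 CPM in controls and 1.3, 3.37, 1.88 and 1.74 at 3 d, from 32 to 75 counts a library. Its change was -1.36 ± 0.43 (adjusted p = 0.0163). H2-DMb1 just passed both limits (-0.67 ± 0.27, adjusted p = 0.0497), with overlapping groups.

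Thus 6 of 9 members were called lower and none higher at 3 d, where 14.4% of all genes tested were called lower and 36.8% higher. The other 3 were H2-DMa (-0.58, adjusted p = 0.0255, a fold of 1.499), H2-DMb2 (-0.42) and Ciita (-0.44). Groups did not overlap for 5 of the 9, all lower, where 14.5% of all genes were lower without overlap. The members' median was -1.36 and that of all genes 0.22. Without replicate 1 of the 3 d group, Cd74, H2-Aa, H2-Eb1 and H2-Ab1 were still called, at -1.28, -1.33, -1.36 and -1.16, whereas H2-Oa and H2-DMb1 were not.

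These sizes depended on the scaling between libraries. With TMM factors taken from genes above a mean log2 CPM of 5, the median gene stood at 0.74 in place of 0.22, Cd74 changed by -1.14 and was the only member called, and Ciita (0.09) and H2-DMb2 (0.11) turned to slightly positive values. Relative to the median gene the members hardly moved over the 4 scalings run. H2-Aa lay between -1.96 and -1.94, H2-DMa between -0.82 and -0.79 and Ciita between -0.66 and -0.65. A change of scaling shifts all genes by nearly the same amount, so these values cannot show which scaling is right.

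Some dendritic cell markers were lower with the chains in monocytes at 3 d, and single markers took different courses at 14 d. Cd209a, a lectin of monocyte derived dendritic cells, measured 303, 293, 142 and 155 CPM in controls, 4.63, 25.2, 32.1 and 158 at 3 d and 28.3, 30.2, 26.4 and 38.7 at 14 d. The 3 d library with the lowest Cd209a was replicate 1, which also had the lowest chains, and the one with the highest was replicate 4, which had the highest. The controls did not share this order, since control replicate 1 had the highest Cd209a (303 CPM) and the lowest H2-Aa, H2-Ab1, H2-Eb1 and Cd74. Pearson's r of log2 CPM between Cd209a and the mean of the 3 chains and Cd74 was 0.84 over the 12 monocyte libraries. With group means taken out it was also 0.84. The summed level of 8 dendritic cell markers ranged from 289.8 to 450.1 CPM in controls, 53.9 to 238 at 3 d and 179 to 231 at 14 d, with none of the 8 at 0 in any library. Its medians were 371, 103 and 190 CPM, and the markers within the sum took different courses between 3 d and 14 d. At 3 d 3 of these markers were called lower (Flt3, Cd209a and Clec10a) and 1 higher (Dnase1l3). At 14 d Flt3, a growth factor receptor of dendritic cells and their precursors, was called higher (81.6 to 141 CPM against 61.2 to 75.1 in controls) and Clec9a lower, where the chains lay below the controls. Flt3 had measured 12.3 to 17.6 CPM at 3 d, so the sum rose by 14 d with Flt3 while Cd209a stayed low. From 3 d to 14 d 3 markers were called lower and 1 higher, with a median of -0.98. Their part in the result was not tested.

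At 14 d the mean levels of the monocyte chains stood between those of the controls and of 3 d. H2-Ab1 measured 1191, 1628, 1326 and 1368 CPM, all below the lowest control at 1792, and changed by -0.89 ± 0.48 (adjusted p = 0.31). Cd74 measured 2728, 3338, 3326 and 3589 CPM, again all below the controls, and changed by -0.80 ± 0.43 (adjusted p = 0.304). H2-Aa (-0.99) and H2-Eb1 (-0.89) likewise did not overlap with controls and did not pass the test.

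H2-Oa was the single member called at 14 d, where 5.34% of all genes tested were called lower. It measured 2.23, 1.73, 0.745 and 0.766 CPM, from 14 to 48 counts a library, and changed by -1.96 ± 0.44 (adjusted p = 0.0114). Groups did not overlap for 5 of the 9 members at 14 d, all lower, where 7.97% of all genes were lower without overlap. H2-DMa (-0.16), H2-DMb1 (-0.20), H2-DMb2 (-0.27) and Ciita (-0.36) overlapped with the controls and did not pass the test. The members' median was -0.80 and that of all genes 0.09. The dispersion shared with the 3 d group entered this test. When only the groups compared were fitted, or without replicate 1 of the 3 d monocytes, H2-Aa, H2-Ab1, H2-Eb1 and Cd74 were also called. The 14 d monocytes also differed in interstitial macrophage markers, of which 5 of 6 were called higher and 1 lower (median 3.35), with a summed level of 58.9 to 176 CPM in controls and 735 to 1876 at 14 d, and the part of these markers in the result was not tested. Between 14 d and 3 d no member was called by edgeR or DESeq2 and none had an unadjusted p under 0.05, where edgeR called 46.5% of all genes, with Cd74 at 0.87 ± 0.43 (adjusted p = 0.102).

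**Figure D2:**
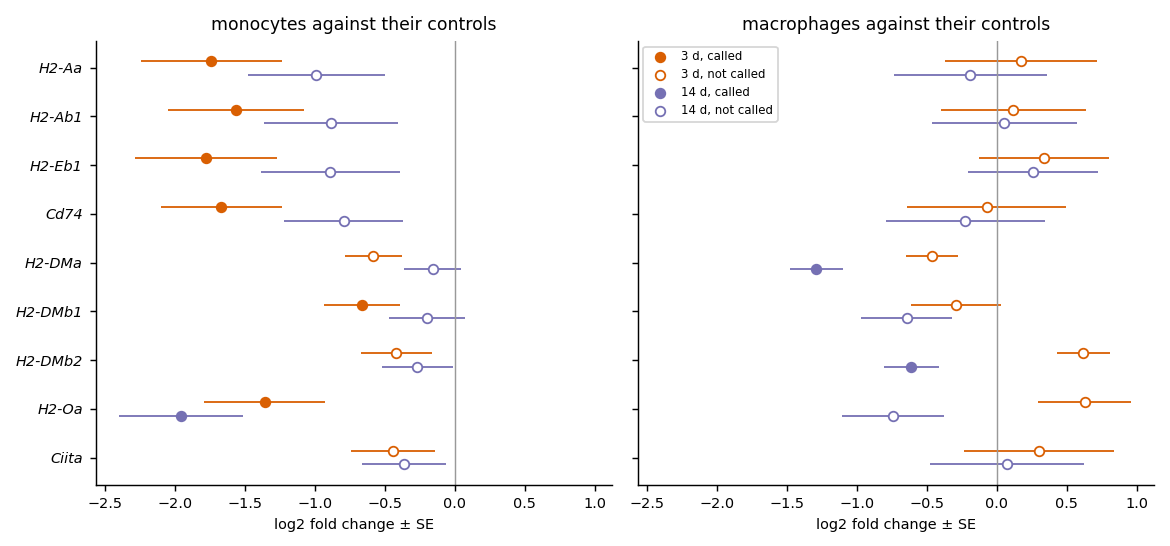
Log2 fold change ± SE of each member against the controls of its cell type at 3 d and 14 d, with filled points for called members. In monocytes the chains, Cd74 and H2-Oa lie furthest below 0, and in macrophages H2-DMa at 14 d does.

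In alveolar macrophages the chains did not pass the test at either time, and the libraries of 1 group differed widely. H2-Aa measured 238, 666, 939.5 and 248 CPM in the 4 controls, 313, 878 and 577 at 3 d and 516, 485 and 373 at 14 d. Cd74 measured 649.5, 2208, 2772 and 803 CPM in the controls, 823, 2507 and 1261 at 3 d and 1480.0, 1425 and 1223 at 14 d. Control replicates 2 and 3 were high and replicates 1 and 4 low for both. Ciita followed the same order, at 13.4, 29.0, 40.2 and 10.6 CPM, whereas H2-DMa did not, at 358, 366, 479.6 and 405.

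At 3 d no member was called in macrophages by edgeR (2 had an unadjusted p under 0.05), and DESeq2 called H2-DMb2, against 1.27% of all genes called by edgeR in either direction. H2-DMb2, a DM beta subunit, measured 37.2, 33.6, 42.4 and 27.5 CPM in controls and 54.0, 43.5 and 64.8 at 3 d, with no overlap. Its change was 0.62 ± 0.19 (adjusted p = 0.125). H2-DMa changed by -0.47 ± 0.19 (adjusted p = 0.259), and the chains by 0.12 to 0.34 with standard errors of 0.46 to 0.54.

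At 14 d the exchange factor subunit H2-DMa was lower in macrophages under each setting run, H2-DMb2 was lower under some of them, and the chains did not pass the test. H2-DMa measured 179.9, 179 and 134 CPM against 358 to 479.6 in the controls, with no overlap, and changed by -1.29 ± 0.19 (adjusted p = 4.82e-05). H2-DMb2 measured 27.1, 24.8 and 16.9 CPM, also without overlap, and changed by -0.61 ± 0.20 (adjusted p = 0.0119). These were the 2 members called, where 22.9% of all genes tested were called lower and 39.4% higher.

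H2-Ab1 (0.05), H2-Eb1 (0.26), H2-Aa (-0.19), Cd74 (-0.22) and Ciita (0.07) differed by less than their standard errors of 0.46 to 0.57, while H2-DMb1 (-0.65) and H2-Oa (-0.74) did not pass the test. The members' median was -0.22 and that of all genes 0.18. H2-DMa was called in each alternative and each fit that left out 1 library. H2-DMb2 was called in 3 of its 9 alternatives. Its call was lost with DESeq2, library size scaling, upper quartile scaling, TMM factors from highly expressed genes (where it stood at -0.05), the stricter filter on low values and the fit of only the groups compared, and without control replicate 1, control replicate 3 or 14 d replicate 3.

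The 14 d macrophage libraries differed from their controls in markers of several cell types. Of 8 alveolar macrophage markers 6 were called lower (median -1.07), and their summed level was 4601 to 6104 CPM in controls and 2099 to 2937 at 14 d. Of 6 interstitial macrophage markers 5 were called higher (median 4.90), among them C1qa (6.01), with a summed level of 4.11 to 18.8 CPM in controls and 251 to 517 at 14 d. Also called higher were 5 of 8 dendritic cell markers and 4 of 7 Ly6Chi monocyte markers. None of the alveolar or interstitial macrophage markers was at 0 in a control or 14 d library. Their part in the changes of the members at 14 d, in the interaction and in the ratios below was not tested.

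Against 3 d, 3 members were called lower at 14 d in macrophages, H2-Oa (-1.37 ± 0.38, adjusted p = 0.0064), H2-DMb2 (-1.23 ± 0.21, adjusted p = 0.000291) and H2-DMa (-0.82 ± 0.20, adjusted p = 0.00264), where 20.0% of all genes were called lower. The groups did not overlap for any of the 3. All 3 calls held in each fit that left out 1 library, and with TMM factors from highly expressed genes H2-DMb2 alone was called. H2-DMa was called in 6 of 10 alternatives here, and its call was also lost with library size scaling, upper quartile scaling and the stricter filter. The members' median was -0.35 and that of all genes 0.16.

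H2-DMa shares 360 exonic bases with Brd2, a chromatin reader encoded on the opposite strand, and whether counting used strand is not given in the sources used here. Brd2 measured 296, 296, 268 and 334 CPM in control macrophages and 163, 138 and 162 at 14 d, a change of -0.95 ± 0.15 (adjusted p = 8.7e-05). In monocytes at 3 d it changed by -0.72 ± 0.27 (adjusted p = 0.0361). It thus fell in the same macrophage libraries as H2-DMa, and reads of the pair cannot be told apart in the shared bases. The part of this overlap in the change of H2-DMa was not tested. H2-Oa and Ciita also overlap genes of the opposite strand, BC051537 and Dexi. BC051537 changed by 2.55 in monocytes at 3 d, where H2-Oa was lower, and Dexi by -0.72 in macrophages at 14 d, where Ciita did not pass the test. H2-DMb1 and H2-DMb2 have 179 words of 100 bases in common (11.3% of those of H2-DMb1 and 10.3% of those of H2-DMb2). The split of reads from these shared stretches is uncertain, and the summed count of both genes was called lower in macrophages at 14 d.

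B cell markers moved with H2-Oa and H2-DMb2 between the 3 d and 14 d macrophage libraries. The summed level of 8 B cell markers ranged from 231 to 342 CPM in controls, 372 to 772 at 3 d and 165 to 272 at 14 d, with none of the 8 at 0 in any library. H2-Oa was highest (19.4 CPM) in the 3 d library with the highest sum and lowest (2.71 CPM) in the 14 d library with the lowest sum, and the same was true of H2-DMb2 (64.8 and 16.9 CPM). From 3 d to 14 d, 7 of the 8 markers were called lower, where 20.0% of all genes tested were. At 14 d against controls, where H2-DMb2 was called lower, 1 marker was called higher and 1 lower (median 0.09). At 3 d against controls none was called, with a median of 1.54. H2-Ob, which pairs with H2-Oa, averaged 17.0, 46.7 and 10.3 CPM in controls, at 3 d and at 14 d. In monocytes the same sum was 87.2 to 128 CPM in controls, 41.7 to 61.3 at 3 d and 41.1 to 56.9 at 14 d, and 5 of the 8 were called lower at each time. Their part in the result was not tested. H2-DMa averaged 402, 291 and 164 CPM in macrophage controls, at 3 d and at 14 d. From 3 d to 14 d it too was lower together with the B cell markers. From controls to 3 d its mean was lower where the sum of these markers was higher.

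**Figure D3:**
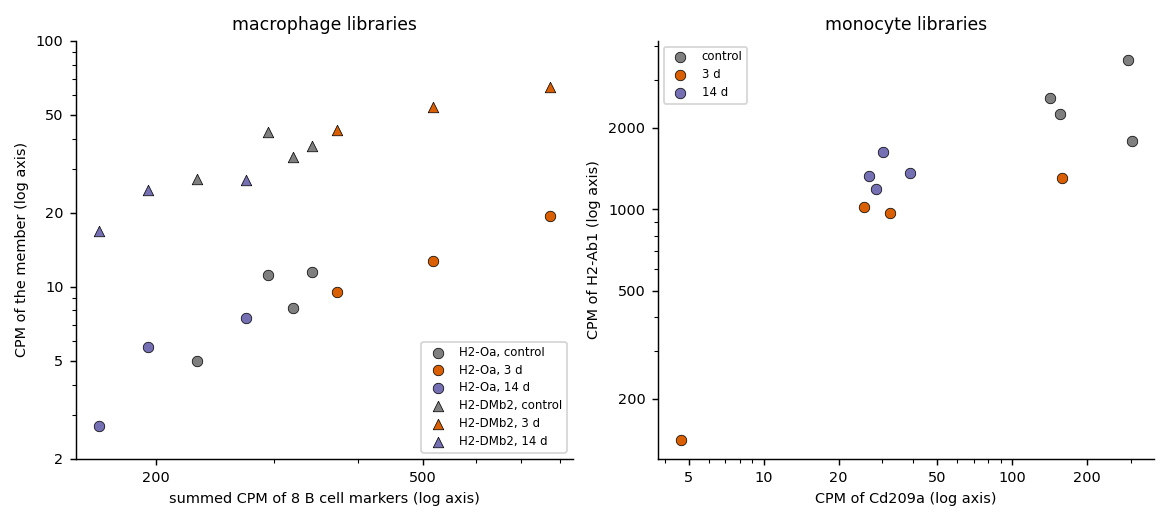
Left, CPM of H2-Oa and H2-DMb2 against the summed CPM of 8 B cell markers in the 10 macrophage libraries; right, CPM of H2-Ab1 against Cd209a in the 12 monocyte libraries (all axes log). Each point is a library, and the 3 d macrophage libraries lie above the 14 d libraries in both members and in the marker sum.

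Whether macrophages and monocytes changed differently was tested as an interaction over all 22 libraries, written as the macrophage change minus the monocyte change. At 3 d H2-Oa was called, at 1.82 ± 0.57 (adjusted p = 0.0297), where 3.51% of all genes were called higher. H2-Eb1 (1.93 ± 0.75, adjusted p = 0.0767) and H2-Aa (1.73 ± 0.79, adjusted p = 0.127) had differences of like size that did not pass. The call of H2-Oa was lost in 6 of the 22 fits that left out 1 library, among them the fit without 3 d monocyte replicate 1. At 14 d H2-DMa was called, at -1.48 ± 0.29 (adjusted p = 0.00043), where 19.9% of all genes were called lower, and it held in each of the 22 fits that left out 1 library. It was not called with upper quartile scaling or with TMM factors from highly expressed genes. Brd2, which shares exonic bases with H2-DMa, was also called in this interaction, at -1.13 ± 0.34 (adjusted p = 0.0118). The part of that overlap in the interaction was not tested. H2-Ab1, at 0.59 ± 0.76, and Cd74, at 0.23 ± 0.75, had wide errors at 14 d.

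Ratios between members of a library do not depend on how libraries are scaled to each other, so they are given as a description with no test. The log2 ratio of the summed chains to summed H2-DM, per kilobase, was 1.53, 2.08, 1.81 and 2.22 in control monocytes, -0.82, 1.30, 0.57 and 1.26 at 3 d and 1.04, 1.26, 1.16 and 1.33 at 14 d. Both later groups lay below every control. In macrophages the same ratio was 0.33, 1.22, 1.38 and 0.25 in controls, 1.02, 1.62 and 1.54 at 3 d and 1.98, 1.91 and 1.89 at 14 d, where all 3 libraries lay above every control.

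The mean ratio at 14 d differed from the control mean by -0.72 in monocytes and by 1.13 in macrophages. Both signs were the same with either length. Leaving out a single library could not change them, since the groups did not overlap. The range in 14 d macrophages, 1.89 to 1.98, was narrow against 0.25 to 1.38 in their controls.

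Ciita, the coactivator, was high relative to the chains in monocytes after tamoxifen. The log2 ratio was -8.24 to -7.79 in controls, -7.04 to -5.69 at 3 d and -7.72 to -7.40 at 14 d, with neither later group overlapping the controls. Without replicate 1 of the 3 d group the mean difference was 1.11 in place of 1.43. In macrophages the ranges of the 3 groups overlapped. The ratio of H2-Oa to H2-DM was -7.27 to -6.39 in control monocytes and -9.55 to -7.88 at 14 d, without overlap. The ratio of Cd74 to the chains had group means of 1.00, 1.02 and 1.10 in monocytes and 0.75, 0.46 and 0.53 in macrophages (control, 3 d and 14 d), and each later group overlapped with its controls.

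**Figure D4:**
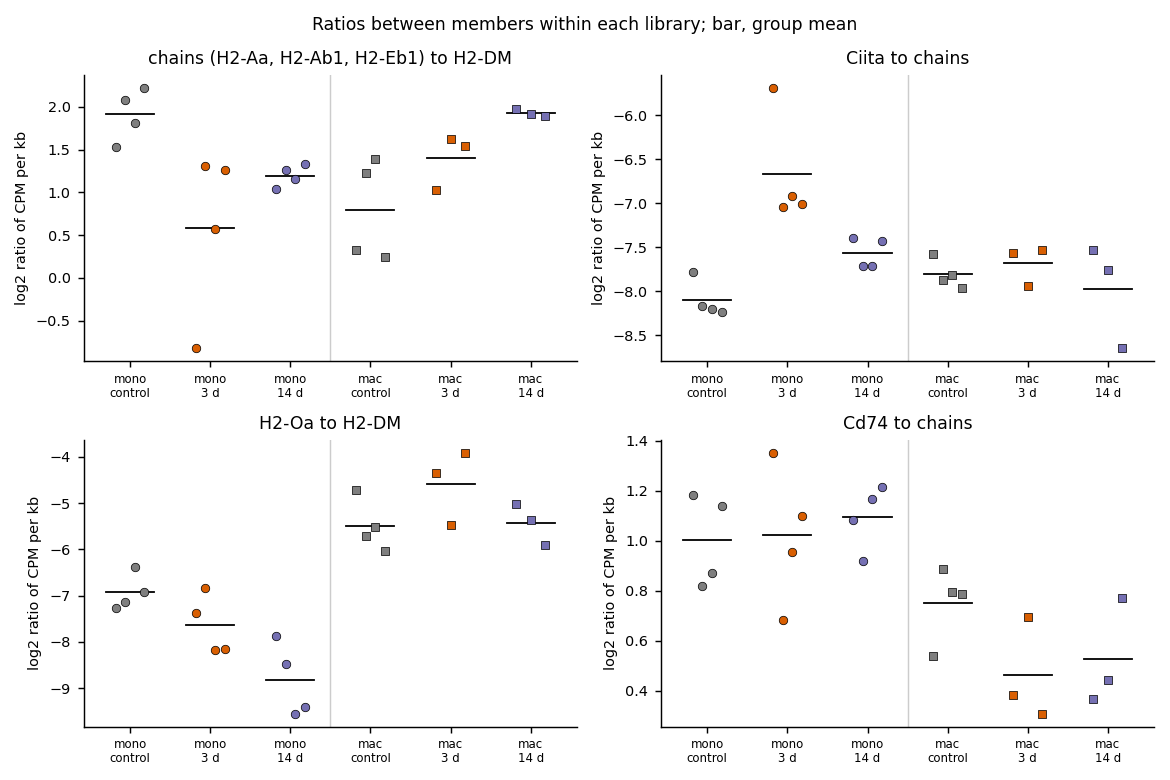
Log2 ratio of CPM per kilobase between members within each library (4 ratios), by group, with a bar at the group mean. The chains to H2-DM ratio is lower at 3 d and 14 d than in control monocytes and higher at 14 d than in control macrophages.

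Across libraries, members kept to each other to different degrees. Pearson's r of log2 CPM with the mean of the 3 chains and Cd74 was 0.91 for Ciita, 0.92 for H2-DMb1, 0.86 for H2-DMa, 0.67 for H2-DMb2 and 0.49 for H2-Oa over the 12 monocyte libraries. Over the 10 macrophage libraries it was 0.87 for Ciita, 0.76 for H2-DMb1, 0.15 for H2-DMa, 0.17 for H2-DMb2 and 0.18 for H2-Oa. With group means taken out, the macrophage values were 0.97 for H2-DMb1, 0.87 for Ciita, 0.66 for H2-DMa, 0.28 for H2-DMb2 and 0.23 for H2-Oa. The monocyte values were then 0.97 for Ciita, 0.90 for H2-DMb1, 0.74 for H2-DMa, 0.52 for H2-DMb2 and 0.32 for H2-Oa. Replicate 1 of the 3 d monocytes enters every monocyte value here and the monocyte ranking below. None of them was computed without it. The libraries of a group share scaling and treatment, and these values are descriptions with no test. Among protein coding genes that are no member, those most like the chains and Cd74 in monocytes were Gramd3 (r = 0.94), Slamf7 (0.93), Pltp (0.92), Aif1 (0.92) and Selenow (0.92), out of 7878 genes ranked. In macrophages they were Ccdc80 (0.84), Nlrc5 (0.79), Ece1 (0.75), Gpt2 (0.71) and Cxcl14 (0.71), out of 9009. Slamf7, a surface receptor, measured 39.1 to 54.6 CPM in control monocytes, 5.65 to 30.2 at 3 d and 23.9 to 46.3 at 14 d. Nlrc5, the class I counterpart of Ciita, measured 6.57, 14.4, 12.8 and 6.57 CPM in control macrophages, high in the same replicates 2 and 3 as the chains. Nlrc5 was picked by its r over these same libraries, so this match adds nothing to the r. Over the monocyte libraries its r was 0.36.

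Other genes of the pathway were counted from lists of 32 genes. For reading these counts, 14.4% of all genes tested were called lower and 36.8% higher in monocytes at 3 d (median 0.22), 5.34% lower and 3.22% higher in monocytes at 14 d (median 0.09), and 22.9% lower and 39.4% higher in macrophages at 14 d (median 0.18). Of 10 genes that process antigen and the invariant chain, 6 were called lower in monocytes at 3 d, among them Ctss, the protease that trims the invariant chain (-0.82 ± 0.15, adjusted p = 0.0012), and Ctsb (-0.79), and the list's median was -0.71. At 14 d 3 were called higher and none lower (median 0.59). Ctsl, another cathepsin, rose from 81.3 to 742 CPM (3.19 ± 0.21), Lgmn, the asparaginyl endopeptidase, changed by 1.19 and Ifi30, a thiol reductase, by 1.00. In macrophages at 14 d 6 of the 10 were called lower and Ctsl higher (0.65), with Sppl2a, which clears the last membrane stub of Cd74, at -1.11 and March8, a ubiquitin ligase, at -0.88 (median -0.67). The interaction at 14 d called 9 of the 10 lower, with Ctsl at -2.87 and a median of -1.29, where 19.9% of all genes were called lower and the median gene stood at 0.48.

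Of 7 factors that bind class II promoters, 5 were called lower in monocytes at 3 d, with Nfyb, an NF-Y subunit, at -1.26 and Rfxank, an X box factor subunit, at -0.81 (median -0.79), and 1 at 14 d (Nfyb, -0.66, median -0.36). In macrophages at 14 d 3 were called lower, Rfxank at -1.15, Nfya at -0.81 and Rfx5 at -0.84 (median -0.54). Of 8 genes between the interferon-gamma receptor and Ciita, 4 were called lower in monocytes at 3 d, including Ifngr1, the receptor's ligand binding chain (-1.17), and Irf1, a transcription factor it induces (-1.05), with a median of -0.56. At 14 d 2 were lower in monocytes, Irf1 at -1.80 among them, and Jak2, a kinase bound to the receptor, was higher (1.28), with a median of -0.18. In macrophages 5 were lower and 2 higher at 14 d, with Usf1 at -1.10, Ifngr1 at -1.07, Jak2 at 1.17 and Socs1, a feedback inhibitor, at 2.61 (median -0.61).

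Of 3 other class II chains listed, H2-Ea-ps was too low to be tested. H2-Ob and H2-Eb2 were tested, and both were called lower in macrophages at 14 d than at 3 d (-2.16 and -1.84). In monocytes H2-Ob was lower at 3 d (-1.31) and 14 d (-1.56). Of 4 co-stimulatory genes, Icosl was called lower in monocytes at 3 d (-0.99) and Cd86 higher at 14 d (0.84). In macrophages Cd40 was called higher at 3 d (1.80), and at 14 d Cd40 (1.24) and Cd86 (1.04) were higher and Cd80 (-0.95) and Icosl (-1.57) lower.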

How the data were processed

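The authors deposited raw counts of reads per Ensembl gene, one table per cell type, without normalization. The submitters' processing notes name STAR 2.7.2c and 2.7.3a, featureCounts 1.6.3, DESeq2 1.26.0 and 1.28.1 and GRCm38, without saying which applies to which table, and use of strand is not given in the sources used here. Symbols, positions and lengths came from GENCODE vM21. Counts were fitted in R 4.3.3 with edgeR 4.0.16 (filterByExpr, TMM, robust quasi-likelihood test), per cell type over its 3 groups (22353 monocyte and 20944 macrophage genes), and over all 22 samples for the interaction and the control comparison (26692 genes). Thresholds were a fold change of 1.5 and an adjusted p-value of 0.05. Log2 CPM used a prior count of 2. The floor of 3 counts was 0.104 to 0.651 CPM and covers counting error only. The procedure was tested on simulated data. Members, lists and alternatives were chosen with earlier results of these data known. Genes outside the members were named as called list genes (at most 3 with the lowest adjusted p per list and comparison), marker genes, genes whose exons overlap a member (chosen after the overlap was seen) and the 5 most like the chains and Cd74 per cell type (mean log2 CPM above 3). Alternatives were DESeq2 1.42.0, other scalings and filters, a replicate block, fits of only the groups compared, H2-DMb1 and H2-DMb2 summed, principal transcript length and leaving out each library; the last 2, for ratios and levels, were added after the data were seen. Ctsl and Socs1 in macrophages and Cd86 in macrophages were named after their values were seen.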

Additional observations from a re-analysis of the deposited data

Results flagged for a closer look

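H2-Ab1 in the 3 d monocytes was picked out because its lowest library, replicate 1 at 141 CPM, stood apart from the other 3 (967 to 1311 CPM). On the log2 scale its gap to the nearest library was 0.863 of the group's whole range. Among 36 sets of 4 libraries (9 members in 4 groups) it was the 1 set past Dixon's limit, and chance alone passes about 1 set in 20.

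H2-Oa was picked out because its change at 3 d differed between cell types in the interaction test, by 1.82 (macrophages minus monocytes, log2), and H2-DMa because its change at 14 d differed by -1.48.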

How the results depend on the processing

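Of 1980 values of single members under an alternative, 1863 kept direction and side of the threshold, 71 lost a call, 46 gained one and 0 reversed a call. In monocytes at 3 d, 6 members were called, against 2 with library size scaling, 3 with upper quartile scaling, 1 with TMM factors from highly expressed genes and 1 with a filter that kept genes over a log2 CPM of 1 on average. In macrophages at 14 d against control, 2 were called, against 1 with DESeq2, with each of these 3 scalings, with that filter and with only the groups compared. Only the groups compared gave 5 in monocytes at 14 d against control. TMM factors from highly expressed genes gave 1 in macrophages at 14 d against 3 d. No filter on low counts gave 1 in monocytes at 14 d against 3 d, and DESeq2 gave 1 in macrophages at 3 d. The interaction at 3 d gave 3 with DESeq2, 2 with no filter and 0 with library size scaling, TMM from highly expressed genes or the stricter filter. The interaction at 14 d gave 0 with upper quartile scaling, and the control comparison 4 with library size scaling. The causes were not tested.

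Leaving out 1 library gave 4 to 8 calls in monocytes at 3 d, 1 to 5 at 14 d and 0 to 1 for 14 d against 3 d. In macrophages it gave 0 to 2 at 3 d, 1 to 4 at 14 d and 3 to 3 for 14 d against 3 d. The interactions gave 0 to 2 at 3 d and 1 to 1 at 14 d, and the control comparison 6 to 7.

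Replicate numbers were not taken to pair the samples, since no comparison had every same-numbered pair above 0.1. Same-numbered deviations correlated at -0.43 to 0.18 in monocytes at 3 d and -0.11 to 0.04 in macrophages at 14 d. Monocytes at 14 d came nearest to pairing, at 0.01 to 0.53 over 4 pairs, with a mean of 0.33 against -0.11 for other pairs. With the replicate block, 7 members were called in monocytes at 3 d, 1 in monocytes at 14 d against 3 d (Cd74), 4 in macrophages at 14 d and 2 in the interaction at 3 d. Depth limits H2-Oa most, at 14 to 201 counts a library.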
